A study of Mus musculus with 7 samples.

Results

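The genes described here are 30 components of insulin, mTOR and AMPK signaling, named by symbol among the 23413 gene symbols counted in mouse brain cortex. The rule has no threshold on a measured value, although earlier results of these data were known when it was set. RNA-seq libraries were made from the cortex of 7 APP/PS1 mice, a transgenic line on a C57BL/6 background that models amyloid deposition and whose transgenes are driven by the mouse prion protein promoter. All mice carried the transgenes, so neither diet has a wild-type group here. At 6 months of age, 4 mice were placed on the control diet (CD, called SD in the sample labels), with 74% of energy as carbohydrate, 10% as protein and 16% as fat, and 3 mice on the ketogenic diet (KD), with under 0.5% as carbohydrate, 10% as protein and 90% as fat. Both diets were fed in isocaloric amounts to singly housed mice for 7 months, and tissue was taken at 13 months after an overnight fast. The study used male and female mice, and the sex behind each library was not given in the sources used here. The question was whether KD changed the transcripts of this nutrient-sensing network in the cortex.

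Insulin and IGF-1 bind receptor tyrosine kinases, which recruit IRS adaptors and activate PI3K and then Akt. Akt inhibits GSK3, the FoxO transcription factors and the TSC complex, and the last of these steps frees Rheb to switch on mTORC1, the kinase complex that drives protein synthesis through S6 kinase and the 4E-BP proteins. AMPK, activated by LKB1 when cellular energy falls, opposes mTORC1. In neurons the network is known for its part in dendritic protein synthesis and synaptic plasticity. Most of this control acts through protein phosphorylation, which counts of transcripts do not measure.

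No member passed the test for a difference between KD and CD. In edgeR's quasi-likelihood test, adjusted by the Benjamini-Hochberg method, 0 of the 30 members fell under 0.05, with values from 0.979 to 0.999, and so did 0 of 15881 genes tested (0%). At a raw p-value of at most 0.01, the threshold the study used, there were again 0 members, against 0.321% of all genes, and at a raw p-value under 0.05 there were 0 members, against 3.19% of all genes (1.66% higher and 1.52% lower in KD). DESeq2 also gave 0 members at that threshold. In a fit that blocked on replicates 1 to 3 of each diet, and so left out CD replicate 4, 2 members had a raw p-value under 0.05, Foxo3 (log2 fold change -0.34) and Prkab1 (-0.45), where 5.89% of all genes did, with an adjusted p-value of 0.83 for each in edgeR's quasi-likelihood test. Leaving out CD replicate 4 without the block gave 1 such member, Prkab1, where 2.73% of all genes were called. All 30 members passed the filter on low counts. Their log2 fold changes (KD minus CD) ran from -0.40 to 0.33 with a median of -0.02, against a median of -0.0033 over all genes, and 26 of the 30 (86.7%) lay within 0.25 of 0, against 75.4% of all genes. The median standard error (SE) was 0.12 for the members and 0.16 for all genes, but the median member, at 83.2 CPM, was also more abundant than the median gene, at 19.3 CPM.

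The intervals set limits on what could have gone undetected. The 95% interval of the fold change lay inside a 1.5-fold change in either direction for 23 members (76.7%, against 57.1% of all genes), and inside a 2-fold change for 29 members (96.7%, against 78.3%). Igfbp5 was the exception, with an interval from 0.405 to 1.42-fold. With 4 and 3 mice, a change inside a gene's interval could not be told from none.

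**Figure D1:**
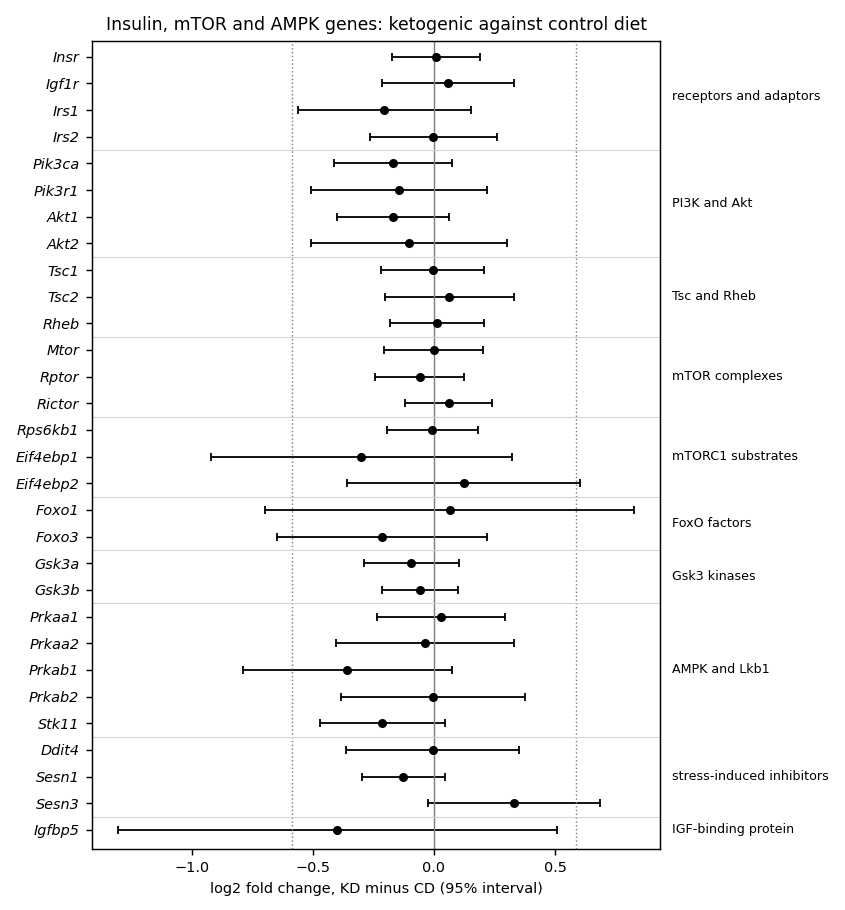
Log2 fold change of each of the 30 genes (KD minus CD, points) with its 95% interval (bars) from edgeR's quasi-likelihood fit on 4 CD and 3 KD libraries. The horizontal axis is the log2 fold change, the genes are grouped by role, and dotted lines mark a 1.5-fold change. Every interval covers 0, and those of Igfbp5, Foxo1 and Eif4ebp1 are among the widest.

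The count of members on each side of 0 moved with the libraries included. With all libraries 9 of 30 members (30%) were higher in KD, against 49.0% of all genes. Without KD replicate 3 the number was 15, and without both KD replicate 3 and CD replicate 4 it was 16. KD replicate 3 was the lowest of the 7 libraries for 13 members (Igf1r, Irs1, Pik3ca, Pik3r1, Akt2, Rptor, Eif4ebp1, Foxo3, Gsk3a, Gsk3b, Prkaa2, Stk11 and Sesn1), where it was the lowest for 19.95% of all genes.

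The libraries held from 22272883 to 36614954 counts, with the lowest totals in KD replicates 1 and 3. Cortical markers were present in every library, with Slc17a7, the vesicular glutamate transporter of cortical excitatory neurons, at 565 ± 94.0 CPM in CD (SD, n = 4) and 599 ± 28.9 CPM in KD (SD, n = 3). CD replicate 4 and KD replicate 3 stood apart from the rest in several marker sums, though not through the same genes or always in the same direction. They were at opposite ends for the striatum markers (104 and 284 CPM, against 143 to 175 CPM in the other libraries). This also held for the endothelium markers (253 and 160 CPM, against 171 to 199 CPM). The pericyte and smooth muscle markers did so as well (102 and 71.5 CPM, against 79.9 to 101 CPM). Summed over 9 listed markers of cortical excitatory neurons, these 2 libraries held 1304 and 1544 CPM, against 1770 to 2000 CPM in the other 5. The 6 olfactory bulb markers summed to 70.7 and 17.0 CPM there, against 4.40 to 10.4 CPM elsewhere, and the 8 ventral forebrain markers to 38.8 and 46.5 CPM, against 19.3 to 26.0 CPM. All 6 olfactory bulb markers were at their highest in CD replicate 4, whereas in KD replicate 3 Cdhr1 made up 12.7 CPM of the sum. Of the ventral forebrain markers, Zic1 was raised in CD replicate 4 (19.4 CPM), and Lhx9 (10.3 CPM) and Gabrq (7.56 CPM) were raised in KD replicate 3. The 7 oligodendrocyte markers were low in CD replicate 3 (1063 CPM) and KD replicate 3 (1091 CPM), against 2109 to 4133 CPM in the others. The 6 choroid plexus markers set CD replicate 1 apart, at 460 CPM against 10.6 to 70.9 CPM. The sum of the 6 inhibitory neuron markers differed by diet, with 853 to 1020 CPM in CD and 735 to 842 CPM in KD, without overlap. Taken singly, only Gad1 had diets that did not overlap (mean 545 CPM in CD and 421 CPM in KD), as did 4.11% of all genes. Gad2 and Sst were higher in mean in KD, and the other 4, Gad1 among them, were lower. The part of these markers in the results below was not tested. No list had all its markers near 0. In whole tissue, fewer cells of a type and less RNA per cell cannot be told apart.

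Among the receptors and adaptors, Insr, the insulin receptor, was nearly flat. It had 103, 98.6, 107 and 114 CPM in the CD libraries (replicates 1 to 4) and 112, 104 and 103 CPM in the KD libraries (replicates 1 to 3), a log2 fold change of 0.0088 (SE 0.08). The KD values lay inside the CD range, and the 95% interval ran from 0.888 to 1.14-fold. Igf1r, the IGF-1 receptor, had 119, 103, 114 and 110 CPM in CD and 134, 119 and 94.9 CPM in KD. KD held both the highest and the lowest library, and the log2 fold change was 0.06 (SE 0.12).

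Irs1 and Irs2, the adaptors that couple both receptors to PI3K, differed in their spread. Irs1 had 36.1, 33.8, 33.1 and 48.6 CPM in CD and 35.7, 34.8 and 28.3 CPM in KD, so that CD replicate 4 was highest and KD replicate 3 lowest. The log2 fold change was -0.20 (SE 0.16), and it was 0.04 without these 2 libraries. Irs2 had 16.7, 18.3, 15.1 and 18.9 CPM in CD and 17.7, 15.9 and 18.1 CPM in KD, with overlapping groups and a log2 fold change of -0.0021 (SE 0.11). The exons of Irs1 share 30.9% of their bases with Gm9747 on the opposite strand, and the strand setting of the counting was not given in the sources used here, so reads of the pair cannot be told apart.

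All 4 members of the PI3K and Akt step were lower in mean in KD, with log2 fold changes from -0.17 to -0.10. Without KD replicate 3 those of Pik3r1 and Akt2 were above 0, at 0.02 and 0.09, and that of Pik3ca was -0.05. None passed a test, since the smallest raw p-value of the 4 was 0.134. Pik3ca, the catalytic subunit p110-alpha, had 214 ± 5.75 CPM in CD (SD, n = 4) and 190 ± 28.3 CPM in KD (SD, n = 3). Its low value came from KD replicate 3, at 158 CPM, while the other KD libraries had 210 and 203 CPM. Pik3r1, the regulatory subunit p85-alpha, had 305, 315, 302 and 242 CPM in CD and 306, 285 and 199 CPM in KD. CD replicate 4 and KD replicate 3 were the low libraries of their diets, and the log2 fold change of Pik3r1 with all libraries was -0.14. Akt1 and Akt2 encode Akt isoforms, of which the latter is the form best known from insulin-stimulated glucose uptake. Akt1 had 98.9 ± 11.8 CPM in CD and 87.9 ± 1.91 CPM in KD, and Akt2 had 49.0 ± 6.22 CPM in CD and 45.6 ± 11.3 CPM in KD (SD, n = 4 and 3). The KD libraries had 53.9, 50.3 and 32.7 CPM of Akt2, so the low mean came from KD replicate 3.

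The TSC complex and Rheb had nearly equal means in both diets. Tsc1 and Tsc2, the subunits that hold Rheb inactive, had log2 fold changes of -0.0057 (SE 0.09) and 0.06 (SE 0.12). Rheb, the GTPase that activates mTORC1, had 102, 121, 101 and 109 CPM in CD and 112, 110 and 106 CPM in KD. Its KD values lay inside the CD range, and its interval ran from 0.883 to 1.15-fold. Mtor, the kinase itself, had 166, 158, 168 and 196 CPM in CD and 171, 176 and 169 CPM in KD, also inside the CD range. For Mtor the log2 fold change was -0.0013 (SE 0.09), with an interval from 0.866 to 1.15-fold. Rptor, which defines mTORC1, and Rictor, which defines mTORC2, had log2 fold changes of -0.06 and 0.06 (SE 0.08 for each).

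The substrates of mTORC1 differed mainly in precision. Rps6kb1, the S6 kinase, had 99.8 ± 7.68 CPM in CD (SD, n = 4) and 99.4 ± 3.39 CPM in KD (SD, n = 3). Eif4ebp1 and Eif4ebp2 encode repressors of cap-dependent translation, the latter known as the prevailing form in brain. Eif4ebp1 had 3.17, 3.38, 2.17 and 2.34 CPM in CD and 2.68, 2.42 and 1.59 CPM in KD. The groups overlapped, KD replicate 3 was lowest, and the interval ran from 0.528 to 1.25-fold. Eif4ebp2 was also low, at 4.64 ± 0.97 CPM in CD and 5.07 ± 0.586 CPM in KD (SD, n = 4 and 3).

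Downstream of Akt, the FoxO factors activate genes of fasting and stress resistance, and GSK3 phosphorylates glycogen synthase and tau. Foxo1 had 7.75, 8.72, 9.83 and 17.1 CPM in CD and 10.7, 7.42 and 16.1 CPM in KD. Its high libraries were CD replicate 4 and KD replicate 3, at 1.95 and 1.78 times the mean of the other libraries on the same diet. For Foxo1 the log2 fold change was 0.07 (SE 0.33), and it was -0.27 without KD replicate 3 and 0.37 without CD replicate 4. Foxo3 ran the opposite way, at 0.765 and 0.638 times the mean of the other libraries in the same 2, and had a log2 fold change of -0.22 (SE 0.19), which was -0.03 without KD replicate 3 and -0.42 without KD replicate 2. Gsk3b had the smallest SD relative to its mean of all members, at 3.29% of the mean over the 7 libraries. It had 297 ± 8.08 CPM in CD (SD, n = 4) and 285 ± 7.95 CPM in KD (SD, n = 3). Gsk3a had a log2 fold change of -0.09 (SE 0.09). The exons of Gsk3a share 28.3% of their bases with the antisense gene 9130221H12Rik.

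AMPK is a trimer whose alpha subunits, Prkaa1 and Prkaa2, carry the kinase. Prkaa1 had 62.6, 63.4, 60.2 and 66.9 CPM in CD and 57.9, 58.3 and 77.4 CPM in KD. Prkaa2 had 129, 115, 113 and 107 CPM in CD and 121, 136 and 82.4 CPM in KD. In KD replicate 3 Prkaa1 was at its highest and Prkaa2 at its lowest of all libraries. The log2 fold changes, 0.03 for Prkaa1 and -0.04 for Prkaa2, became -0.13 and 0.14 without that library, neither with a raw p-value under 0.05. Of the beta subunits, Prkab1 had 12.8 ± 2.08 CPM in CD (SD, n = 4) and 9.95 ± 2.20 CPM in KD (SD, n = 3), the second lowest log2 fold change among the members. It was -0.36 (SE 0.19), with an adjusted p-value of 0.979 in edgeR's quasi-likelihood test. Prkab2 had a log2 fold change of -0.0030 (SE 0.17). Stk11, which encodes LKB1, had 27.2 ± 2.36 CPM in CD and 23.4 ± 2.51 CPM in KD (SD, n = 4 and 3), a log2 fold change of -0.21 (SE 0.11).

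**Figure D2:**
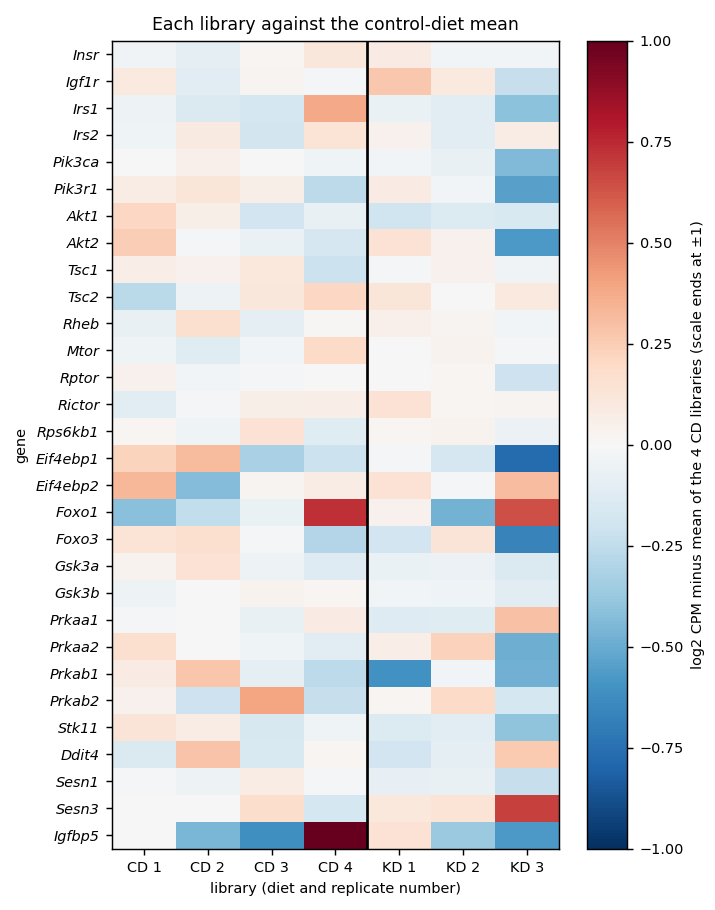
Log2 CPM of each gene (rows) in each library (columns; CD 1 to 4 left of the line, KD 1 to 3 right of it), minus the mean of the 4 CD libraries. Colors end at ±1, which Igfbp5 in CD replicate 4 exceeds. The strongest colors lie in CD replicate 4 and KD replicate 3, where Foxo1 was high and Pik3r1 and Foxo3 were low in both.

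Across the members, 20 of 30 (66.7%) deviated in the same direction in CD replicate 4 and KD replicate 3 from the mean of the other libraries on their diet, against 54.3% of all genes. These libraries were singled out after the values were seen, and the shares are a description. The part of the marker differences given above in these deviations was not tested.

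The stress-induced inhibitors of mTORC1 gave the single member whose diets did not overlap. Sesn1 and Sesn3 encode sestrins, a family that restrains mTORC1 and whose genes are known as targets of FoxO or p53 factors. Sesn1 had 89.7, 87.6, 95.4 and 90.1 CPM in CD and 85.9, 86.0 and 77.4 CPM in KD. Every KD library was below every CD library, the 1 such member of 30, where 4.11% of all genes had diets that did not overlap (2.05% with KD above and 2.07% with KD below). The gap between the nearest libraries was small, and the log2 fold change of Sesn1 was -0.13 (SE 0.07, interval 0.814 to 1.03-fold) with an adjusted p-value of 0.979 in edgeR's quasi-likelihood test.

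Sesn3 had the smallest raw p-value of the members, 0.0630, and ranked 695 of 15881 genes by it. It had 49.6, 49.9, 56.3 and 44.1 CPM in CD and 53.7, 54.8 and 80.2 CPM in KD. KD replicate 3 was far above the others, and the other KD libraries lay inside the CD range. For Sesn3 the log2 fold change was 0.33 (SE 0.15). Across the fits without 1 library it ran from 0.12, without KD replicate 3, to 0.43. Ddit4, which encodes REDD1, an inhibitor of mTORC1 induced by hypoxia and glucocorticoids, had 15.3, 20.5, 15.1 and 17.0 CPM in CD and 14.8, 15.8 and 20.2 CPM in KD. Its diets overlapped, although KD replicate 1 was the lowest library, and the log2 fold change was -0.0051 (SE 0.16).

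Promoter sequence is shown for the sestrins, chosen after their values were seen, because their mean differences had opposite signs. Windows from 250 bases before to 50 bases after an annotated start were taken from RefSeq (GRCm38.p6), which gave 34 windows for 28 of the 30 members. The letters TGTTTAC, a core bound by FoxO factors, were searched on both strands. They occurred in 3 of the 34 member windows (8.82%), against 3.65% of all 32851 windows, in Akt1, Sesn1 and Stk11. All 3 had a log2 fold change below 0, as did 21 of the 30 members, and a match is a description of letters, not a bound site. The first Sesn1 window lies on the + strand of chromosome 10 (chr10:41810324-41810623), with the match in capitals starting 22 bases after the start. The second annotated Sesn1 start held no match. The Sesn3 window, on the + strand of chromosome 9 (chr9:14276051-14276350), held no match.
Sesn1: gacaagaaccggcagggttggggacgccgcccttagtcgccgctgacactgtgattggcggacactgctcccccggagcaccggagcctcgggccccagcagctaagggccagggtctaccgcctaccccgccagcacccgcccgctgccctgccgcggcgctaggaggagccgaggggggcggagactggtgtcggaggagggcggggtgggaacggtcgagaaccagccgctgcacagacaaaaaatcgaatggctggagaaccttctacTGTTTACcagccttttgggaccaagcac
Sesn3: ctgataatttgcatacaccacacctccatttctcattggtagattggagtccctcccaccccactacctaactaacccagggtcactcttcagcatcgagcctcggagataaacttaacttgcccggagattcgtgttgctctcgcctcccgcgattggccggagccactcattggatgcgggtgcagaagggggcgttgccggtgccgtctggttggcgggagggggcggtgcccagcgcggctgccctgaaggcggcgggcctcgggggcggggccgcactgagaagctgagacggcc
The GC content was 66.7% for this Sesn1 window and 62.7% for the Sesn3 window. The GC-box letters GGGCGG, read on both strands, occurred in 22 of the 34 member windows, against 35.7% of all windows. The E-box letters CACGTG occurred in 3 member windows (Irs1, Irs2 and Rheb), against 7.15% of all, and the CRE letters TGACGTCA in 0, against 1.79%.

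Igfbp5, a secreted protein that binds IGF-1 and limits its access to the receptor, varied most. It had 142, 103, 92.3 and 296 CPM in CD and 156, 110 and 94.99 CPM in KD. CD replicate 4 was 2.63 times the mean of the other CD libraries, and the KD values lay inside the CD range. The log2 fold change of -0.40 (SE 0.40) became 0.10 without CD replicate 4. CD replicate 4 also had the highest sums of olfactory bulb markers and of meningeal fibroblast markers (245 CPM, against 32.8 to 119 CPM elsewhere). KD replicate 3 had the next highest of both sums, with Igfbp5 at 94.99 CPM. The next highest Igfbp5 values, in KD replicate 1 and CD replicate 1, came with fibroblast sums of 42.2 and 33.6 CPM. The endothelium markers summed to 253 CPM in CD replicate 4, 199 CPM in KD replicate 1 and 198 CPM in CD replicate 1. Elsewhere they summed to 160 to 198 CPM. The pericyte and smooth muscle markers summed to 102, 93.5 and 101 CPM in the same libraries, against 71.5 to 85.5 CPM elsewhere. Both lists were picked after the values were seen. The part of any of these cell types in the Igfbp5 values was not tested.

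Ratios of related members within a library do not depend on how libraries are scaled. Of 11 pairs compared by an exact permutation test (two-sided, 35 splits, smallest possible p = 0.0286), 1 reached that value. The ratio of Sesn3 to Sesn1 counts was 0.552, 0.569, 0.590 and 0.490 in CD and 0.625, 0.637 and 1.04 in KD. Every KD library was above every CD library, by 0.44 on the log2 scale in the mean (exact permutation p = 0.0286), and the Benjamini-Hochberg adjusted value over the 11 pairs was 0.314. A single pair at the smallest possible p cannot reach an adjusted value under 0.05 among 11 pairs. The adjusted value therefore could not decide whether this ratio differed. Without KD replicate 3 the difference was 0.20, still with every KD library above every CD library. The other 10 pairs had diets that overlapped, with exact permutation p-values from 0.200 to 0.886.

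Several ratios moved more between libraries than between diets. The ratio of Prkaa2 to Prkaa1 counts was 1.60 to 2.07 in CD and 2.09, 2.33 and 1.06 in KD. The ratio of Foxo3 to Foxo1 counts was 4.48, 4.06, 3.19 and 1.51 in CD and 2.60, 4.65 and 1.23 in KD, lowest in CD replicate 4 and KD replicate 3. In contrast, the ratio of Gsk3b to Gsk3a counts was 3.72 to 3.77 in the 3 KD libraries, within the CD range of 3.31 to 4.07.

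**Figure D3:**
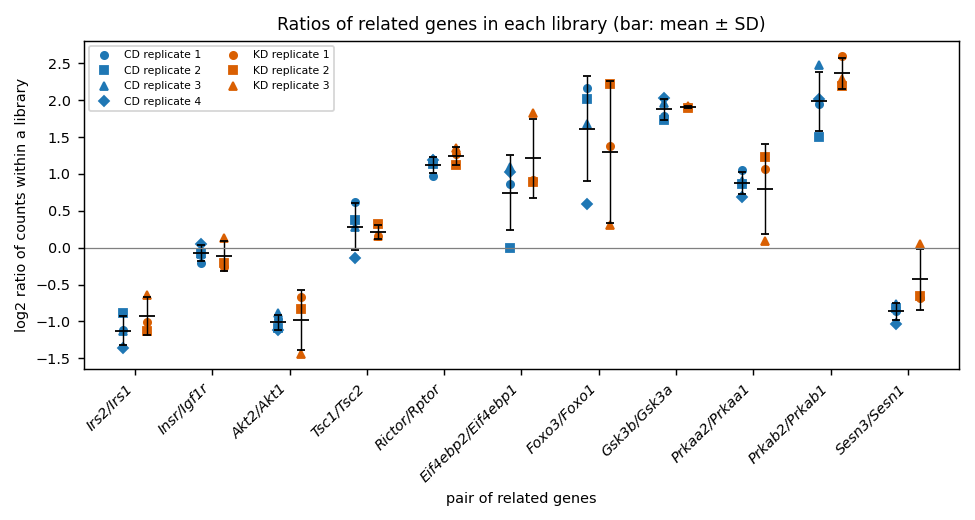
Log2 ratio of the counts of 11 pairs of related genes in each library (CD blue, KD orange; symbols mark replicates), with the mean and SD of each diet as bars. The Sesn3 to Sesn1 ratio was the one pair without overlap between diets, and its highest point is KD replicate 3.

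Levels of different genes were compared per kilobase of exon, as RPKM, over all 7 libraries. Gsk3b was highest at 29.70 ± 0.978 RPKM (SD, n = 7), followed by Pik3r1 at 27.7 ± 4.26 and Gsk3a at 27.2 ± 1.94 RPKM, which do not differ beyond their spread. Mtor had 17.0 ± 1.18 RPKM, and the AMPK alpha subunits Prkaa2 and Prkaa1 had 14.4 ± 2.18 and 13.7 ± 1.46 RPKM, again within their spread. Insr, at 7.70 ± 0.388 RPKM, and Igf1r, at 6.75 ± 0.748 RPKM, lay lower, and their adaptors lower still, with Irs1 at 3.91 ± 0.682 and Irs2 at 2.73 ± 0.218 RPKM. Akt1, at 23.0 ± 2.50 RPKM, exceeded Akt2, at 6.67 ± 1.14 RPKM, and Sesn1, at 22.0 ± 1.37 RPKM, exceeded Sesn3, at 3.63 ± 0.761 RPKM. The lowest members were Foxo1 (1.28 ± 0.455 RPKM), Eif4ebp1 (1.16 ± 0.277 RPKM) and Eif4ebp2 (0.834 ± 0.138 RPKM). Of the 29 neighbouring pairs in this order, 23 did not differ beyond the sum of their SDs. The highest mean was 35.6 times the lowest, and 47.1 times with the longest transcript as the length, when Pik3r1 (39.2 RPKM) was above Gsk3b (35.2 RPKM). Whether reads of Eif4ebp2 were lost in annotation or counting was not tested.

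**Figure D4:**
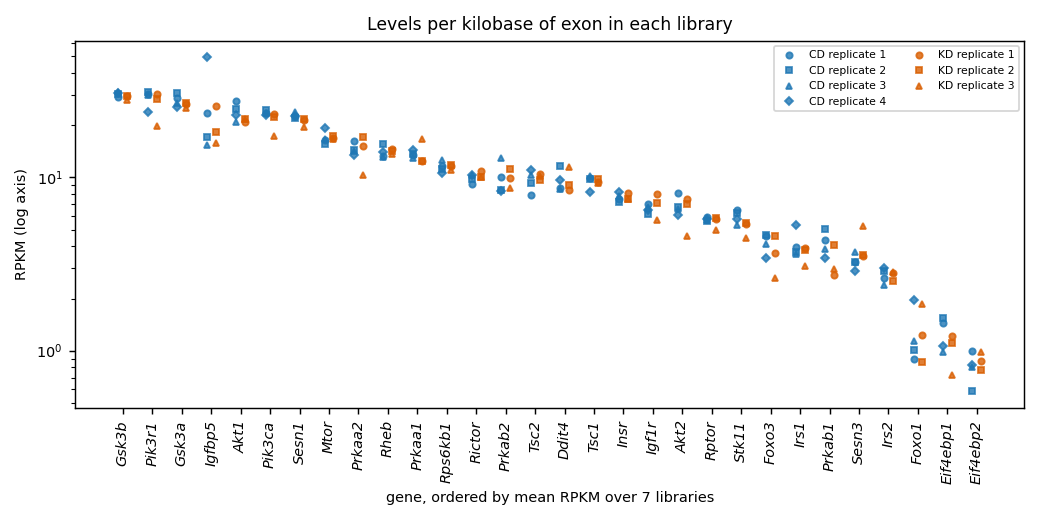
RPKM of each gene in each library (log axis; CD blue, KD orange), ordered by the mean over 7 libraries. Levels run from Gsk3b at 29.70 to Eif4ebp2 at 0.834 RPKM, and the points of a gene lie close together except for genes such as Igfbp5 and Foxo1.

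Of 121 further genes listed for the same pathways, 118 were in the files and 114 were tested. None had an adjusted p-value under 0.05 or a raw p-value of at most 0.01 in edgeR's quasi-likelihood test, and 3 had a raw p-value under 0.05, all of them lower in KD (1.52% of all genes were lower at that threshold). With the replicate block 13 had a raw p-value under 0.05, where 5.89% of all genes did, and 3 had one of at most 0.01, where 182 of 15660 genes did. By role, the tested genes higher in KD numbered 2 of 8 ligands and binding proteins, 3 of 11 adaptors and receptor brakes, 6 of 16 in the PI3K and Akt step, 4 of 20 mTOR partners, 12 of 25 amino acid sensors, 11 of 19 AMPK partners and targets and 4 of 15 FoxO factors and FoxO-induced genes. The median log2 fold change over the 114 was -0.02. Ins1, an insulin gene, had 0 counts in every library, which allows up to 0.0789 to 0.133 CPM, and Ins2 had at most 0.0442 CPM, under that limit.

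The 4 listed genes with the smallest raw p-values were Trib3, Ppargc1a, Bcl6 and Igfbp2. Trib3, a stress-induced pseudokinase that binds Akt, had 0.629, 0.444, 0.489 and 0.921 CPM in CD and 0.173, 0.299 and 0.221 CPM in KD, without overlap but at low level. The log2 fold change was -1.20 (SE 0.38), with an adjusted p-value of 0.979 in edgeR's quasi-likelihood test. Ppargc1a encodes PGC-1alpha, the coactivator of mitochondrial genes that AMPK phosphorylates, and had 66.8, 68.0, 55.4 and 86.2 CPM in CD and 60.5, 51.5 and 42.9 CPM in KD. CD replicate 4 was highest and KD replicate 3 lowest, and its log2 fold change of -0.42 became -0.18 without both. Bcl6, a transcriptional repressor induced by FoxO, had 25.1, 23.6, 22.0 and 41.3 CPM in CD and 21.7, 18.8 and 16.8 CPM in KD, with a log2 fold change of -0.55 that became -0.30 without CD replicate 4. Igfbp2, another IGF-binding protein, had a log2 fold change of -0.50 (SE 0.23), and -0.33 without CD replicate 4.

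The members called at the raw threshold of 0.05 depended on the fit. With 1 library left out, Sesn3 was called without CD replicate 3, KD replicate 1 or KD replicate 2. The shares of all genes called there were 7.38%, 4.01% and 4.56%. Akt1 was called without CD replicate 3, and Prkab1 without CD replicate 4 (2.73% of all genes) or KD replicate 2. With the log2 CPM of Xist, a transcript of the inactive X chromosome, as a covariate, Pik3ca, Foxo3, Stk11 and Sesn3 had raw p-values under 0.05 (0.0245 to 0.0447), where 6.95% of all genes did. Their adjusted p-values in that fit of edgeR's quasi-likelihood test were 0.684 for Pik3ca, Stk11 and Sesn3 and 0.700 for Foxo3. Xist entered as a continuous value and no sex was assigned to any library, so whether that fit adjusts for sex was not tested.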

How the data were processed

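Counts were deposited for the cortex of 7 mice (CD n = 4, KD n = 3). The authors checked reads with FASTQC, aligned them to mm10 with STAR and counted reads per gene symbol by the HTSeq method inside STAR, and deposited these raw counts without normalization. The annotation, the strand setting and tool versions are not given in the sources used here. Libraries were made from total RNA with a stranded kit, so unspliced transcripts can be among the counted reads.

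Groups came from the sample labels. The p-values measure the spread between mice, 1 library each. The whole table was fitted with edgeR 4.0.16 (R 4.3.3): filterByExpr (15881 genes left), TMM scaling (factors 0.978 to 1.04), estimateDisp, glmQLFit with robust=TRUE, and glmQLFTest without covariates, with Benjamini-Hochberg adjustment over all tested genes. CPM here are on TMM-scaled library sizes. Intervals are 95% and use the moderated degrees of freedom. A gene at 3 counts or fewer in each library is at the floor (0.0789 to 0.133 CPM), which covers counting error only. Coordinates, exon lengths and overlaps were taken from GENCODE M21 (same genome). Permutation tests used SciPy 1.17.1. The pairs of libraries within a diet differed by more than sampling noise (chi-square per gene 15.4 to 64.8, where 1 is noise alone).

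The members and gene lists were chosen with earlier results of these data known. Values per library were given for members with diets that did not overlap or a raw p under 0.05 and for 12 members set by name, and the other pathway genes were named by smallest raw p. Chosen after values were seen were the other members given per library (Pik3r1 and Sesn3, and Pik3ca and Akt2 in KD only). So were the promoters and the 4 motifs searched, and the windows of 0.25 log2, 1.5-fold and 2-fold. The counts that set CD replicate 4 and KD replicate 3 apart were also chosen then. Whether equal replicate numbers pair mice is not stated in the sources used here. Deviations from the diet means correlated at 0.251, 0.195 and 0.098 for the same-numbered libraries in edgeR's log2 CPM, and at 0.309, 0.236 and 0.132 with 0.5 added to the CPM, so the third lies on either side of the 0.1 taken as the line. The second scale was computed first, and the counts with the block were already known when the scales were compared. The fit without the block was kept as planned, and blocked values are given where they differ. In simulated counts, the KD against CD fit recovered 54.8% of 197 genes given a log2 change of 1 (15725 tested) and 83.8% of 197 given a change of 2 (15726 tested) at an adjusted p under 0.05. Those counts were drawn independently for each gene and library, so no library stood apart across many genes, as CD replicate 4 and KD replicate 3 did. Changes as small as those of the members were not simulated. Alternatives were RLE, upper-quartile and library-size scaling, other filters (1 count; 1 CPM in 3 libraries), DESeq2 1.42.0, limma-voom (limma 3.58.1), the likelihood-ratio test, robust=FALSE, a replicate block, Xist as a covariate, and leaving out libraries.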

Additional observations from a re-analysis of the deposited data

Results flagged for a closer look

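Of 58 values in the CD group (genes, ratios and summed markers), 3 had a lowest or highest library whose distance from its neighbour, as a share of the whole CD range, was above Dixon's 95% critical value, where chance gives about 2.9. Pik3r1 was set apart by CD replicate 4 (log2 CPM 7.92, against 8.24 to 8.30, share 0.839). The summed oligodendrocyte markers were set apart by CD replicate 3 (log2 CPM 10.05, against 11.7 to 12.0, share 0.859). The summed markers of oligodendrocyte precursors were set apart by CD replicate 4 (log2 CPM 7.34, against 6.79 to 6.87, share 0.842).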

How the results depend on the processing

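No member had an adjusted p under 0.05 in any alternative, and the smallest was 0.674, for Akt1 without CD replicate 3. Members with a raw p under 0.05 numbered 0 in the main fit, 4 with Xist in the model and 0 to 2 when 1 library was left out, and those with a raw p of at most 0.01 numbered 0 throughout. The members higher in KD numbered 9, from 8 to 15 across the fits without 1 library, and 16 without CD replicate 4 and KD replicate 3 together, a setting chosen after seeing the data.

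Over all genes, a raw p of at most 0.01 was reached by 51, against 120 with DESeq2, 103 with the likelihood-ratio test, 229 with Xist in the model and 19 to 211 when 1 library was left out (lowest and highest without CD replicates 1 and 3). At a raw p under 0.05 there were 506, against 1103 with Xist in the model and from 256 to 1161 without 1 library. At an adjusted p under 0.05 there were 0, against 1 with the likelihood-ratio test and 1 with Xist in the model. Of the other pathway genes, 3 had a raw p under 0.05, against 7 with DESeq2, 7 with the likelihood-ratio test, 11 with Xist in the model and from 3 to 9 without 1 library. At most 0.01 was reached by 0, against 1 with the likelihood-ratio test, 2 with Xist in the model and from 0 to 1 without 1 library. Of the pair ratios, 1 had p at the smallest value, and 0 in each set without 1 library, where splits are too few for p under 0.05 in 6 libraries. The causes were not tested.

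Pairing by replicate number could be neither shown nor dismissed, since the third same-numbered correlation was 0.098 or 0.132 by scale, and KD replicate 3 correlated best with CD replicate 4 (0.308). The block on replicates 1 to 3 gave 182 genes at a raw p of at most 0.01, 923 under 0.05 and 0 at the adjusted threshold. It gave 2 members (Foxo3 and Prkab1) and 13 other pathway genes under 0.05, and 3 of the latter at most 0.01. That fit also leaves out CD replicate 4, which without the block gave 33 genes at most 0.01. The log2 fold changes of Irs2, Mtor and Igfbp5 turned to 0.0453, 0.0676 and 0.0876 with the block, and to 0.0441, 0.0670 and 0.0954 on the same 6 libraries without it.

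Of the 30 members, 18 changed sign somewhere, most of them near 0. Library size alone gave Insr -0.0032, the filter at 1 CPM gave Irs2 0.00081 and Mtor 0.0012, limma-voom gave Mtor 0.0036, Foxo1 -0.0035 and Prkab2 0.0195, and Xist in the model gave Irs2 0.00078 and Mtor 0.0097. Without CD replicate 4 and KD replicate 3 the values were 0.0688 for Insr, 0.0390 for Irs1, 0.0106 for Irs2, 0.0357 for Akt2, 0.0838 for Mtor, 0.0125 for Rptor, -0.0920 for Prkaa1, 0.113 for Prkaa2, 0.0114 for Prkab2 and 0.241 for Igfbp5. Across the fits without 1 library the log2 fold changes ran from -0.0298 to 0.0464 for Insr, -0.0565 to 0.184 for Igf1r, -0.266 to -0.0618 for Irs1, -0.0593 to 0.0523 for Irs2, -0.267 to 0.0209 for Pik3r1, -0.239 to 0.0855 for Akt2, -0.0724 to 0.0292 for Tsc1, -0.0209 to 0.135 for Tsc2, -0.0167 to 0.0707 for Rheb, -0.0403 to 0.0670 for Mtor, -0.103 to 0.0063 for Rptor, -0.0452 to 0.0437 for Rps6kb1, -0.268 to 0.372 for Foxo1, -0.126 to 0.0994 for Prkaa1, -0.192 to 0.143 for Prkaa2, -0.0989 to 0.146 for Prkab2, -0.152 to 0.0971 for Ddit4 and -0.631 to 0.0954 for Igfbp5. The log2 pair differences ran from -0.215 to 0.0381 for Tsc1 over Tsc2, -0.0171 to 0.0828 for Gsk3b over Gsk3a, -0.156 to 0.0366 for Insr over Igf1r, -0.122 to 0.262 for Akt2 over Akt1, -0.774 to 0.184 for Foxo3 over Foxo1 and -0.297 to 0.269 for Prkaa2 over Prkaa1. Member levels spanned 35.6-fold, or 47.1-fold with the longest transcript.

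The lowest totals were those of KD replicates 1 and 3, and the effect of depth on the spread of low genes was not tested.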
